A study of Mus musculus with 2 samples.

Results

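The genes described here are 10 immediate early transcription regulators: Fos, Fosb, Fosl1, Fosl2, Jun, Junb, Jund, Atf3, Egr1 and Ier2. They were taken by symbol from the 19059 genes measured in the series and each matched 1 row. The rule uses symbols only, though the set was put together with earlier results of these data known. AP-1 is a dimer of a Fos-type and a Jun-type protein, or of 2 Jun-type proteins, joined by leucine zippers. It binds the motif TGANTCA and the related cyclic AMP element. Growth factors and stress kinases switch on Fos, Jun, Egr1 and Ier2 within minutes and without new protein synthesis, and MAP kinase phosphatases and mRNA-decay factors switch them off. Fosl1 is a delayed member that follows lasting ERK activity and is known from carcinomas, and Atf3 follows cell stress. In the pancreas, AP-1 is known for its part in acinar injury and in the inflammatory and invasive programs of tumors.

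The cells came from orthotopic KPC tumors, a mouse model of pancreatic cancer. One sample was treated with DMSO, the vehicle, and the other with EIPA at 10 mg/kg, an amiloride derivative that inhibits sodium-proton exchange and is used to block macropinocytosis. Each sample pooled 4 tumors, which were flash frozen before fixed cell suspensions were made and read with probes in droplets. Both samples share 1 count matrix. The number that ends each barcode tells 2 libraries apart but the labels do not say which library had which treatment. All values are given for library 1 and library 2 and say nothing of the direction of any EIPA effect. Strain, age and further genotype of the mice, the source of the implanted cells and the length of treatment are not given in the sources used here. With 1 pooled library each there is no replicate and no test, and every interval covers counting error only.

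Library 1 held 12337 cells and 203459556 UMIs (unique molecules) and library 2 held 11945 cells and 185474400. After removal of poor cells and likely doublets 11115 and 10785 cells remained, with medians of 10785 and 10016 UMIs, and 225 barcode sequences occurred in both libraries before filtering. The cells fell into 34 clusters, found without the 10 genes and without the related gene lists below, so that none of these genes shaped a cluster. The classes used below carried clear markers: fibroblasts (372 and 451 cells), macrophages or monocytes (792 and 784), T cells (124 and 339), neutrophils (139 and 163) and blood endothelial cells (140 and 119). Pericytes were few (62 and 50). Epithelial tumor cells (5 clusters, 2174 and 1799 cells) had Epcam between 389 and 1499.9 CPM, where CPM is a gene's scaled share of all UMIs of a cluster or class. The other 15 clusters (7199 and 6811 cells) were left unnamed: 5 reached no class's markers, 8 passed only a list for tumor cells of low epithelial level, and 2 had epithelial markers with low depth or with leading genes of another class. Their Krt8, a simple-epithelial keratin gene, stood between 729 and 3709.6 CPM. Epithelial and unnamed cells are also given together.

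RNA of tumor cells was present in the profiles of all other classes. The median over 10 epithelial markers, as a share of their level in epithelial and unnamed cells together, was 24.9% and 23.3% in fibroblasts of libraries 1 and 2, 25.7% and 23.4% in endothelial cells, 35.9% and 31.7% in pericytes and 41.9% and 38.9% in macrophages. It was 51.3% and 48.6% in T cells and 45.3% and 63.3% in neutrophils, the shallowest class with medians of 1216 and 1077 UMIs. A gene of these 10 that stood near such a share in a class cannot be told apart there from carried-over RNA.

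Short stretches of promoter sequence were searched for motifs of signal-responsive elements. The RefSeq table of mouse promoters (GRCm38.p6) held 7 of the 10 genes, and the 150 bases before the start site were searched on both strands. TGACG, the core of a cyclic AMP element, was in 4 of the 7 (Fos, Fosb, Junb and Atf3) and in 13.3% of all 32851 promoters of that table. The variant TGACATCA was in Jun and in 2.32% of all promoters. TGANTCA, the AP-1 motif itself, was in none of the 7 and in 4.24% of all, the full TGACGTCA in none and in 1.36%, and TATAAA, read on the gene's strand only, in Fos and in 4.84%. A CArG box, the element bound by serum response factor, was in none and in 0.916%. Elements further than 150 bases from the start site were outside the search, so a missing match says nothing of them. Start sites are those of the RefSeq table. The Jund window ends at 70697738, upstream of the annotated gene start at 70698949, and the Fosl2 and Atf3 windows lie inside the annotated genes. Overlapping matches of these motifs share bases (TGACGTCA holds TGACG). Matches are letters and not shown to be bound. Fos, Fosb, Jun and Atf3 are printed because pairs among them had the highest co-detection in single cells, as given below. Each sequence runs 5′ to 3′ on the gene's own strand and ends at the base before the start site, with the matches in capitals.

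Fos, chr12:85473740-85473889, plus strand: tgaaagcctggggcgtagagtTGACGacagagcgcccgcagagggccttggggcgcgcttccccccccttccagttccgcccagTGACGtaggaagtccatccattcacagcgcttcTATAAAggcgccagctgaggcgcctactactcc

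Fosb, chr7:19310046-19310195, minus strand: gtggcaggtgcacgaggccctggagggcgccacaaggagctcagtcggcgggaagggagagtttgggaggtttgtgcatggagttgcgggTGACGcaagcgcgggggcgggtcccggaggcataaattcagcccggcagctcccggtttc

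Jun, chr4:95052223-95052372, minus strand: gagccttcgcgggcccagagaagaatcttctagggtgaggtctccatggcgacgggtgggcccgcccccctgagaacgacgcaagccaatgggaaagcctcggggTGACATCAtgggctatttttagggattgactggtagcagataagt

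Atf3, chr1:191183334-191183483, minus strand: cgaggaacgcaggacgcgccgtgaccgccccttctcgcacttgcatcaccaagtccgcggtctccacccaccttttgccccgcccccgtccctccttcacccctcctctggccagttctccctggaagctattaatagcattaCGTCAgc

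In Fos the 2 TGACG matches begin at -129 and -66 and TATAAA at -33, counted from the start site. The match begins at -60 in Fosb and at -106 in Junb, lies on the opposite strand at -7 to -3 in Atf3, and TGACATCA begins at -45 in Jun.

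Among the Fos family, Fos stood highest in epithelial tumor cells. It reached 337 CPM (332 to 343) in library 1 and 227 CPM (222 to 232) in library 2, with 95% Poisson intervals in brackets here and below. The unnamed cells held 85.6 and 52.1 CPM, fibroblasts 69.4 and 90.4, macrophages 84.1 and 84.6 and endothelial cells 86.5 and 58.2. T cells held 131 CPM (109.9 to 154) and 92.1 CPM (77.2 to 109), and pericytes 149 CPM (107 to 201) and 47.7 CPM (26.7 to 78.6). Below epithelial tumor cells the order of classes was not the same in both libraries, and the intervals of each pair of neighbors in that order overlapped. Fosb, a close relative of Fos with a splice form that lacks the activation domain, was between 7.09 and 20.9 CPM in the other classes described and highest in T cells of library 1, at 49.8 CPM (37.3 to 65.2) against 20.5 CPM (13.8 to 29.2) in library 2.

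Fosl1, in contrast to Fos, was highest in the unnamed cells, at 60.6 CPM (59.2 to 62.1) and 90.7 CPM (88.9 to 92.5), against 33.2 and 35.2 CPM in epithelial tumor cells. In fibroblasts it was 28.2 and 35.5 CPM, which is 54.1% and 46.6% of the level in epithelial and unnamed cells together. Endothelial cells held 14.9 and 19.4 CPM, or 28.5% and 25.4% of that level, close to the 25.7% and 23.4% of the epithelial markers. Fosl2, a Fos-type member without the strong activation domain of Fos, was highest in blood endothelial cells, at 400.1 CPM (363 to 439.8) and 376 CPM (331 to 426). Those values are 263% and 267% of the level in epithelial and unnamed cells, where it was 152 and 141 CPM. Pericytes held 266 and 248 and fibroblasts 218 and 161 CPM. The next class was neutrophils in library 1, at 287 CPM (242 to 338), and pericytes in library 2, at 248 CPM (196 to 309), and neither interval reached the endothelial one.

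The 3 Jun genes were present in all classes. Jun, the main partner of Fos, stood at 218 CPM (214 to 222) and 159 CPM (155 to 163) in epithelial tumor cells and at 113 and 93.0 CPM in the unnamed cells. Fibroblasts held 132 and 186, macrophages 150.01 and 142 and endothelial cells 185 and 159.7. Junb, which can hold back Jun activity, was higher in the unnamed (943 and 899 CPM) and epithelial tumor cells (833 and 727) than in fibroblasts (431 and 419) and endothelial cells (483 and 346) in both libraries. Neutrophils differed between the libraries, with Junb at 1367 CPM (1267 to 1474) and 761 CPM (683 to 847). Jund, known for steady rather than induced expression, ranged from 401 CPM in fibroblasts to 790.0 in epithelial tumor cells in library 1, and in library 2 from 410.5 in endothelial cells to 897 in epithelial tumor cells.

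Atf3, a stress-induced member that forms dimers with Jun proteins, was prominent in macrophages, where it stood at 42.1 CPM (36.8 to 48.1) and 41.8 CPM (35.5 to 48.9) and reached 208% and 366% of its level in epithelial and unnamed cells, where the epithelial markers stood at 41.9% and 38.9%. T cells and neutrophils of library 1 had similar values, 52.7 CPM (39.8 to 68.4) and 47.8 CPM (30.7 to 71.2), from 56 and 24 UMIs. In library 2 these classes held 14.3 CPM (8.87 to 21.9) and 11.2 CPM (3.62 to 26.1). Fibroblasts were lowest in both libraries, at 9.76 and 6.33 CPM.

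Egr1, a zinc-finger factor outside AP-1 that serum response factor drives, differed widely between classes. Fibroblasts held 449 CPM (424 to 474) and 336 CPM (316 to 356), 123% and 126% of the level in epithelial and unnamed cells. Pericytes held 486 and 254, the unnamed cells 421 and 307, neutrophils 431 and 192 and T cells 343 and 191 CPM. Epithelial tumor cells held 237 and 153 and endothelial cells were lowest in both libraries, at 179 and 119 CPM. Epithelial tumor cells thus had less Egr1 and more Fos than the unnamed cells in each library. Ier2, a short regulator named for its rapid induction, ranged from 163 CPM in pericytes to 351 in neutrophils in library 1, and from 156 in macrophages to 296 in the unnamed cells in library 2. Dendritic, islet and lymphatic endothelial cells had under 50 cells in 1 library and are not described.

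**Figure D1:**
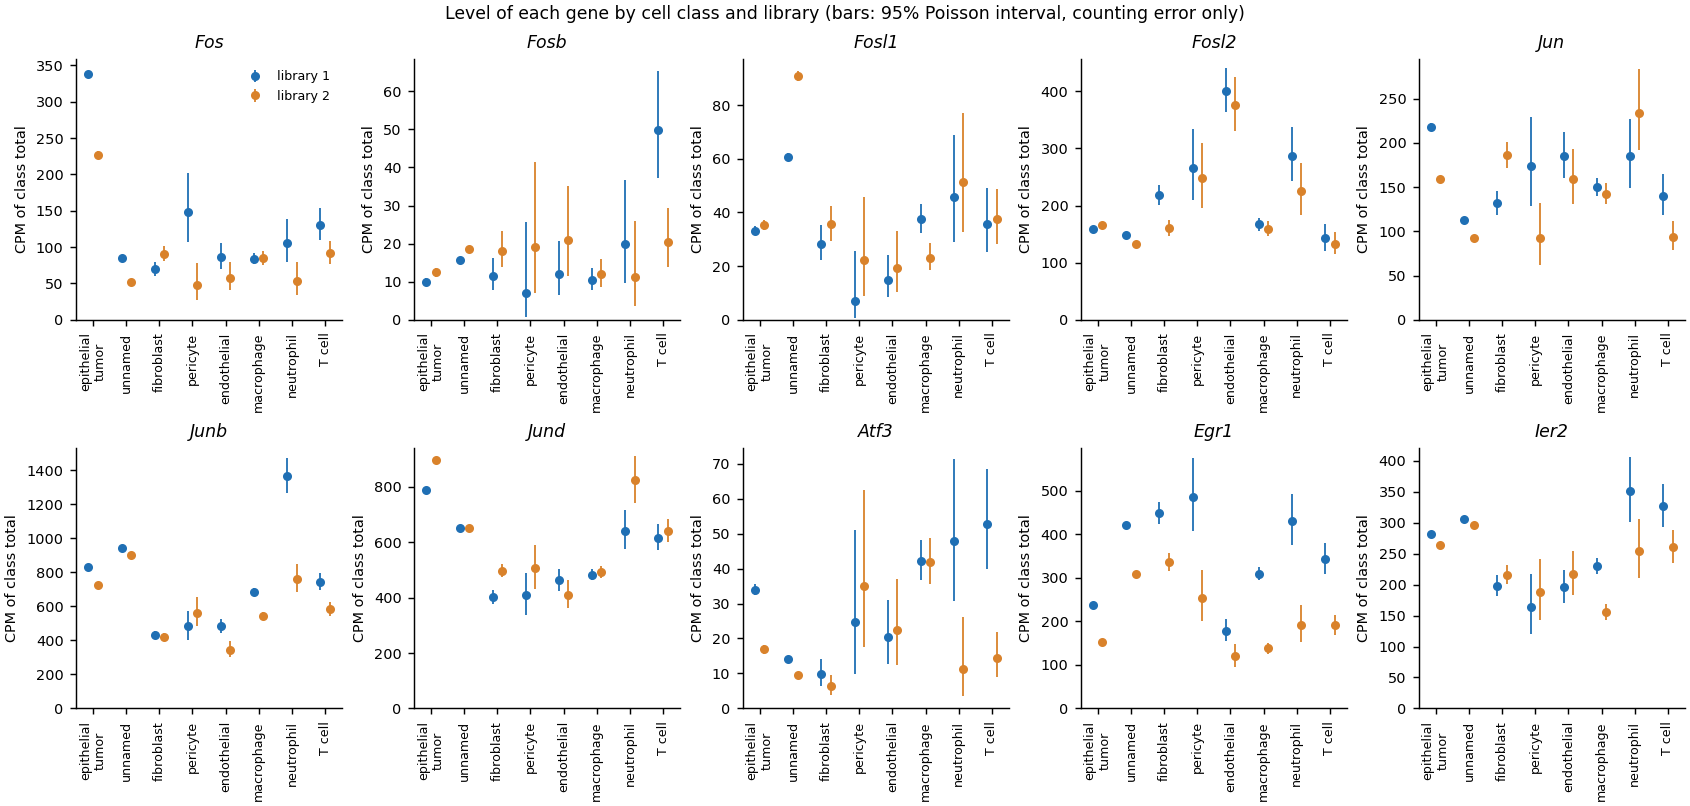
Level of each of the 10 genes (CPM of the class total, linear axis) in 8 cell classes. Points are library 1 (blue) and library 2 (orange) and bars are 95% Poisson intervals. Fos is highest in epithelial tumor cells, Fosl1 in unnamed cells and Fosl2 in endothelial cells in both libraries.

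Among the epithelial and unnamed cells, 16 clusters had at least 100 cells in each library. Fos and Egr1 ran in opposite directions across them, and Fos went with the epithelial surface protein Epcam. In library 1 Fos was highest in cluster 2, led by Sptssb, Spink4 and Tff2, at 434 and 192 CPM in libraries 1 and 2. In library 2 it was highest in cluster 8, with Lama3, Cldn4 and the heat shock genes Hspa1a and Hspa1b among its leading genes, at 234 and 316. It reached 263 and 308 in cluster 11, led by Pigr, Ltf and Reg3b, and 349 and 183 in cluster 4, led by Kif12 and Rgs11. The lowest values were 39.2 and 34.0 in cluster 9, led by the mitotic genes Pimreg and Ube2c, in library 1, and 51.9 and 23.4 in cluster 12, led by Insm1 and Il11, in library 2. As a description over 16 clusters that share libraries, Spearman's rank correlation of Fos with Epcam was 0.69 and 0.75 in libraries 1 and 2, and of Fos with Jun 0.69 and 0.79.

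Egr1 was highest in cluster 12 in library 1 (617 CPM, 283 in library 2) and in cluster 1, led by Ivl, Gas1 and Mmp3, in library 2 (373 CPM, 519 in library 1). It stood at 178 and 117 in cluster 11 and 210.4 and 94.7 in cluster 17, an Epcam-bearing cluster of low depth. The rank correlation of Egr1 with Epcam was -0.65 and -0.75, with Fos -0.54 and -0.69 and with Ier2 0.75 and 0.44. Fosl1 was highest in cluster 9, at 149 and 145 CPM, and lowest in cluster 11, at 20.0 and 26.3, cluster 2, at 24.9 and 23.7, and cluster 17, at 16.3 and 31.2. Its rank correlation with Epcam was -0.64 and -0.49 and with Fos -0.66 and -0.55. Cluster 19, like cluster 9 led by mitotic genes, Mki67 and Top2a among them, had Fosl1 at 40.7 and 54.4 CPM and Fos at 268 and 174.

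**Figure D2:**
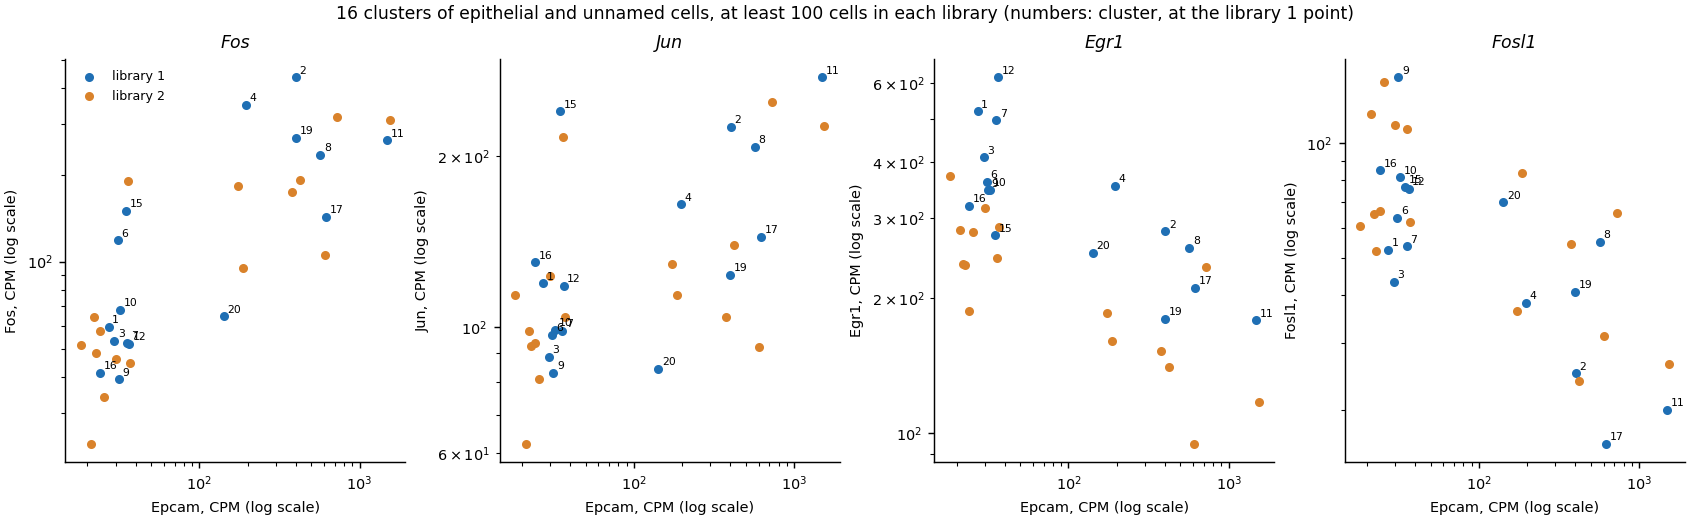
Fos, Jun, Egr1 and Fosl1 (vertical, CPM, log scale) against Epcam (horizontal, CPM, log scale) in the 16 clusters of epithelial and unnamed cells with at least 100 cells in each library, blue for library 1 and orange for library 2. Fos is higher, and Egr1 and Fosl1 are lower, in most clusters with Epcam above 100 CPM; cluster 15, at low Epcam, is high in Jun.

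Clusters 15 and 16 at low Epcam stood out for stress-linked members. Cluster 15, led by the hypoxia gene Adm and by the heat shock genes Hspa1a and Hspa1b, had the highest Fosl2 (414 and 381 CPM), Jund (1528 and 1209.6), Atf3 (81.9 and 101) and Fosb (57.7 and 47.7) of the 16 clusters, in both libraries. Its Fos was 150.1 and 191 and its Jun 240.0 and 217. Dusp1, a phosphatase that turns off MAP kinases, reached 1121 CPM there over both libraries, against 384 or less in the other 15. These cells were shallow, with a median of 3284 UMIs, and Hspa1b stood at 400.2 CPM, against 170.0 or less in the other 15 clusters. The part of cell stress or RNA quality in these levels was not tested. Cluster 16, led by Trib3, Chac1 and Asns, genes of the amino acid response, had Atf3 at 49.3 and 79.6 and Jund at 1101 and 1156. Its Fos was 41.3 and 46.2 and its Hspa1b 12.8. Cluster 8, with Epcam at 568 and 723 CPM, also had Hspa1a and Hspa1b among its leading genes. It held Atf3 at 49.0 and 53.9, Fosl2 at 198 and 211, Fosb at 21.4 and 33.9 and Dusp1 at 384 CPM.

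Between the libraries, Fos, Atf3 and Egr1 stood lower in library 2 in epithelial tumor cells. Atf3 was at 34.0 CPM (32.3 to 35.7) in library 1 and 16.9 CPM (15.6 to 18.3) in library 2, a log2 ratio of library 2 over library 1 of -0.97 (-1.14 to -0.87), computed on CPM plus 1 with the interval of the CPM ratio. Egr1 was at 237 and 153 CPM, a log2 ratio of -0.63 (-0.68 to -0.58). A ratio past 1.5-fold with at least 20 CPM in 1 library is counted here as past the line. A gene can meet this only through the library where it is higher, as Atf3 did in epithelial tumor cells. Of 9 of the 10 genes that reached 20 CPM, 2 were past it and lower in library 2, and none higher. Among all 8683 genes at that level in the same cells, 0.944% were lower and 1.19% higher. Fos itself (337 and 227) stayed within the line at -0.57 (-0.61 to -0.54), as did Jun (218 and 159) at -0.45. Junb and Ier2 differed by -0.20 and -0.09, and Jund, Fosl1 and Fosl2 by 0.18, 0.08 and 0.05. The median over the 9 genes was -0.20, beside 0.02 over all genes. With the mean of per-cell shares in place of summed UMIs the log2 ratio was -0.23 for Atf3 and -0.43 for Egr1, both within the line.

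In the unnamed cells 1 of 8 genes at 20 CPM was past the line: Fos, at 85.6 CPM (83.8 to 87.3) and 52.1 CPM (50.7 to 53.5), a log2 ratio of -0.71 (-0.76 to -0.67). Of all genes there 1.07% were lower and 2.84% higher. Fosl1 was the only one of the 8 higher in library 2, at 60.6 and 90.7 CPM and 0.57 (0.54 to 0.63), just short of 1.5-fold. Over epithelial and unnamed cells together, Fos (163 and 97.4, -0.74) and Atf3 (20.3 and 11.4, -0.78) were past the line, beside 0.821% of all genes lower. Atf3 was counted there only because library 1 stood just over 20 CPM.

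The libraries held the clusters in different numbers: cluster 1 had 2250 and 842 cells, cluster 9 had 198 and 826, cluster 14, led by Mmp10 and Cck, had 29 and 576, and cluster 21, led by Muc5b and Muc5ac, had 344 and 9. When library 2 was weighted to the cluster numbers of library 1, over epithelial and unnamed cells together, the log2 ratio of Fos went from -0.74 to -0.39, of Atf3 from -0.78 to -0.40, of Fosl1 from 0.54 to 0.19 and of Jun from -0.40 to -0.18. Fos and Atf3 were then within the 1.5-fold line. Egr1 went the other way, from -0.45 to -0.56.

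Within clusters, Egr1 was the only one of the 10 genes on the same side of 0 throughout. It was lower in library 2 in each of the 16 clusters with at least 100 cells per library, by a median log2 ratio of -0.62 and a range of -1.14 to -0.02, and past 1.5-fold in 9. Of 6664 genes at 20 CPM in all 16 clusters, 217 (3.26%) were below 0 in all 16 and 17 (0.255%) were past 1.5-fold in at least 9. Those 17 were looked up after these values were seen. Olr1 and Ivl were past the line in the most clusters, 14 each, then Muc5ac and Zbtb20 in 13 each. The MAP kinase phosphatase gene Dusp1, the circadian genes Dbp and Nr1d1, and Mmp3 and Spp1 were also among them. Most of the 17 were in none of the gene lists described here. The libraries' clusters are not replicates, since each library gives 1 pool. Outside the 16, cluster 14 had 29 cells in library 1 and Egr1 at 343 and 557 CPM, higher in library 2.

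Fos differed in both directions. It was lower in library 2 in 11 of the 16 clusters, beside 31% of genes in at least 11, and past 1.5-fold in 5 (clusters 2, 4, 6, 12 and 19), beside 0.72% of genes past that line in at least 5. In cluster 2 it stood at 434 CPM (424 to 443) in library 1 and 192 CPM (186 to 198) in library 2, and in cluster 4 at 349 CPM (334 to 364) and 183 CPM (171 to 195). In cluster 8 it was higher in library 2, 234 CPM (224 to 244) against 316 CPM (302 to 331), as in cluster 11 (263 and 308), cluster 15 (150.1 and 191), cluster 16 (41.3 and 46.2) and cluster 20 (64.6 and 94.9), which the interferon genes Ifit3 and Cxcl10 lead. Cluster 2 was also lower in Atf3 (31.8 and 8.44 CPM), Jun (225 and 139.6) and Egr1 (281 and 141) in library 2. In that cluster 4 of the 9 genes at 20 CPM were past 1.5-fold lower, beside 1.06% of all genes. Cluster 12 had 6 of the 10 genes past the line and lower (Fos, Fosb, Fosl2, Jun, Atf3 and Egr1) and Fosl1 higher (76.1 and 119 CPM), beside 6.94% lower and 7.82% higher of all genes. Fosb and Atf3 in cluster 12, and Atf3 in cluster 2, reached 20 CPM in library 1 only.

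Fosl1 was above 0 in 12 of the 16 clusters, as were 31.2% of genes in at least 12, and past 1.5-fold in 2 (clusters 12 and 17), as were 6.12% of genes in at least 2. Junb was below 0 in 13, beside 19.7% of genes in at least 13, and Jund above 0 in 11, beside 37.6% in at least 11, and neither was past 1.5-fold in any cluster. Jun was below 0 in 12, beside 25.5% of genes in at least 12, and past 1.5-fold in 3 (clusters 2, 12 and 17), beside 2.1% in at least 3. Ier2 was above 0 in 8 and below in 8, and Fosl2 above in 6 and below in 10. Atf3 reached 20 CPM in 7 of the 16 clusters, where it was past 1.5-fold lower in 4, as were 0.383% of genes in at least 4 of the 7. Clusters 8, 15 and 16 had 20 CPM of Atf3 in both libraries. It was past 1.5-fold only in cluster 16, higher in library 2, beside 2.73% of all genes of that cluster. The values there were 49.3 CPM (43.8 to 55.3) in library 1 and 79.6 CPM (67.8 to 92.8) in library 2.

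**Figure D3:**
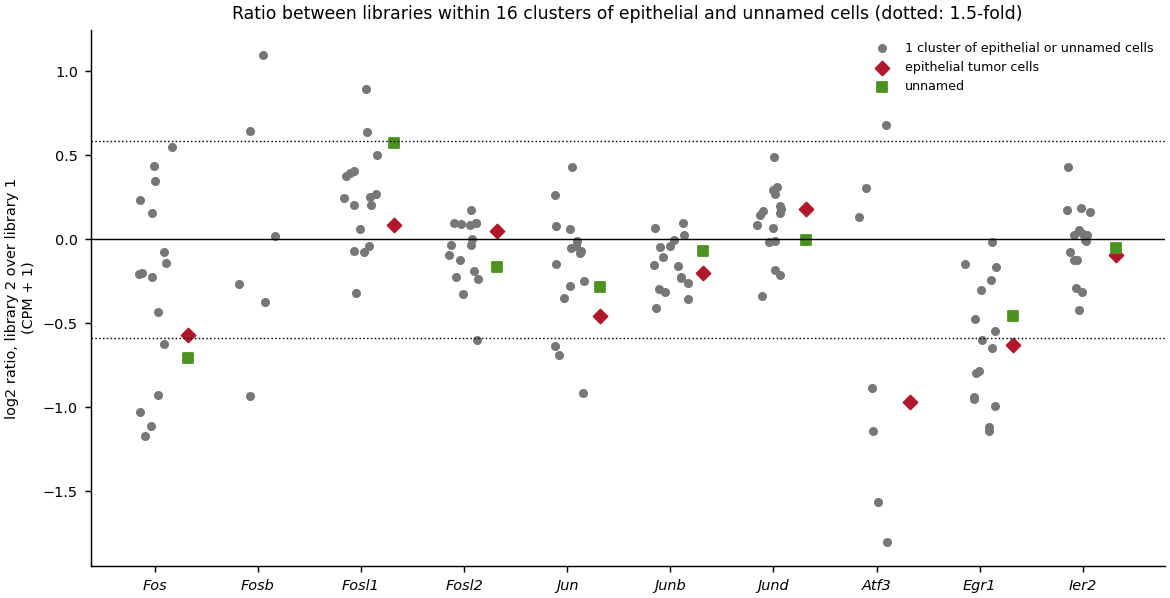
Log2 ratio of library 2 over library 1 (CPM plus 1, vertical) for each gene (horizontal) in the 16 clusters of epithelial and unnamed cells (grey), in all epithelial tumor cells (red) and in all unnamed cells (green), where the gene reaches 20 CPM. Dotted lines mark 1.5-fold; the 16 Egr1 points lie below 0, and Fos points lie on both sides.

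Outside the epithelial and unnamed cells, Egr1 was lower in library 2 in all 6 other classes described. The share of all genes lower in all 6 was not counted, and the 6 are not independent, since each carried tumor-cell RNA. In macrophages Egr1 stood at 309 CPM (294 to 324) in library 1 and 138 CPM in library 2, a log2 ratio of -1.16 (-1.31 to -1.02). Egr1 and Fosl1 (37.5 and 23.2 CPM) were the 2 of 9 genes past 1.5-fold, both lower, beside 6.32% of all genes lower. The macrophage class held 2 large clusters in different numbers. Cluster 5, with 544 and 667 cells, had Egr1 at 163 and 95.2 CPM, and cluster 22, with 219 and 101 cells, had 403 and 221. Cluster 22 was deep (median 10142 UMIs), had Ptprc, the pan-leukocyte gene, at 99.6 CPM against 386 in cluster 5, and had epithelial markers at 47.4% and 65.9% of the level in epithelial and unnamed cells, against 30.9% and 26.7% in cluster 5. Egr1 was past 1.5-fold lower in each of the 2 clusters, beside 5.58% and 2.15% of all genes. In cluster 5 Egr1 stood at 44.6% and 35.6% of its level in epithelial and unnamed cells, near the share of the epithelial markers there, and in cluster 22 at 111% and 82.8%. Egr1 was also lower in library 2 in epithelial and unnamed cells (365 and 267 CPM), and the part of their RNA in the macrophage values was not tested. Fosl1 was 20.0 and 12.9 in cluster 5 and 48.6 and 42.9 in cluster 22, and over the class it stood at 72.0% and 30.3% of its level in epithelial and unnamed cells, beside 41.9% and 38.9% for the epithelial markers. Atf3 was 65.9 and 54.0 in cluster 5 and 27.2 and 18.3 in cluster 22.

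In fibroblasts none of 8 genes at 20 CPM was past 1.5-fold, beside 3.75% of all genes higher and 4.21% lower. Jun was at 132 CPM (119 to 146) in library 1 and 186 CPM (172 to 201) in library 2 and Fos at 69.4 CPM (60.0 to 80.0) and 90.4 CPM (80.4 to 101), the 2 highest ratios with 0.49 and 0.38. Fosl2 and Egr1 had log2 ratios of -0.44 and -0.42. The median was 0.22, beside 0.02 over all genes. Cluster 25, led by Eln and Saa3 and rich in the chemokine gene Cxcl12, gave 29 cells of library 1 and 145 of library 2. It held Fos at 123 and 97.0 CPM and Jun at 273 and 226, and cluster 13, with 343 and 306 cells, held 65.8 and 85.6 and 122 and 158.

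T cells and neutrophils of library 1 stood above those of library 2 for several genes. In T cells Fosb, Atf3 and Egr1 were past 1.5-fold and lower in library 2, with log2 ratios of -1.24, -1.81 and -0.84, beside 5.41% of all genes lower and 9.55% higher. In neutrophils Fos, Junb, Atf3 and Egr1 were, with -0.97, -0.84, -2.01 and -1.16, beside 11.1%. Endothelial cells had Fosb (12.1 and 20.9 CPM) higher, beside 9.92% higher and 7.44% lower, but only 5% and 5.88% of 140 and 119 cells held a UMI of it. Pericytes had Fos (-1.62), Jun (-0.91) and Egr1 (-0.93) lower and Fosl1 (1.52) higher, beside 18.5% lower and 16.4% higher. Pericyte Fosl1 and endothelial Fosb reached 20 CPM in library 2 only, and Atf3 of T cells and neutrophils in library 1 only. Pericyte Fosl1 was 7.09 and 22.3 CPM, from 62 and 50 cells. It stood at 13.6% and 29.2% of its level in epithelial and unnamed cells, below the 35.9% and 31.7% of the epithelial markers. In pericytes epithelial markers also stood lower in library 2, with a median log2 ratio of -0.50 and 4 of 9 past the line and lower, as did macrophage markers, with -0.80 and 4 of 7. T cells and neutrophils carried epithelial marker RNA at 51.3% and 48.6% and 45.3% and 63.3%, and the part of other cells' RNA in the ratios of these 3 classes was not tested.

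The other genes of the pathway were described from lists that were put together with earlier results of these data known. Feedback inhibitors, which switch MAP kinase signaling and unstable mRNAs off, had 12 of 13 measured genes at 20 CPM in epithelial tumor cells. Of these 1 was past 1.5-fold, beside 0.944% of all genes lower: Dusp1, at 225 and 128 CPM, a log2 ratio of -0.81. The list's median was -0.15 beside 0.02 over all genes. Dusp1 was also lower in library 2 in the unnamed cells (277 and 169 CPM), in fibroblasts (171 and 107 CPM) and in macrophages (233 and 131 CPM). Zfp36, whose protein speeds the decay of short-lived mRNAs, was 149 and 109 CPM in epithelial tumor cells. Dusp5, an ERK phosphatase, and Spry2, a receptor-signaling inhibitor, stood higher in library 2 in the unnamed cells, at 556 and 736 CPM and 169 and 216 CPM, within 1.5-fold. In fibroblasts Spry1, of the same family, was 550.1 and 267 CPM, a log2 ratio of -1.04.

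Of the other immediate early transcription factors none of 9 at 20 CPM in epithelial tumor cells was past 1.5-fold. Klf6 was 598 and 459 CPM and Nr4a1, an orphan nuclear receptor, 69.6 and 56.1 CPM. In the unnamed cells 1 of 10 was, beside 2.84% of all genes higher: Klf2, a factor known from quiescent lymphocytes and endothelium, which was higher in library 2 at 109 and 193 CPM. Among the unnamed clusters Klf2 was highest in cluster 12 (382 CPM, 171 and 550 cells) and cluster 14 (228 CPM, 29 and 576 cells). Dusp5 was highest in the same clusters, at 1098 and 1171 CPM. The part of cluster numbers in the ratios of Klf2 and Dusp5 was not tested. Klf2 was 49.2 and 100.01 CPM in fibroblasts, where 3 of 11 were past the line, all higher in library 2, beside 3.75% of all genes higher: Klf2, Klf4 (52.4 and 81.0 CPM) and Klf10 (39.1 and 59.9 CPM). Among immediate early effectors, 1 of 15 was past the line in epithelial tumor cells, lower in library 2 as were 0.944% of all genes, and 2 of 14 in the unnamed cells, 1 lower and 1 higher, beside 1.07% and 2.84%: Ptgs2, which makes prostaglandins, at 72.4 and 47.9 CPM, and Gadd45g at 65.7 and 103 CPM. In fibroblasts Ptgs2 was 129.8 and 58.1 CPM. The EGF-receptor ligand Hbegf was 214 and 162 CPM in epithelial tumor cells and 247 and 124 CPM in macrophages, a log2 ratio of -0.98 there.

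The kinases and factors upstream showed smaller differences. None of 16, all at 20 CPM, was past 1.5-fold in epithelial tumor cells, unnamed cells or fibroblasts, with medians of -0.14, -0.09 and -0.16. Mapk3, which encodes an ERK kinase, was 338 and 276 CPM in epithelial tumor cells. Of other AP-1 family genes and partners, none was past the line in these 3 classes. In macrophages 3 of 10 were, all higher in library 2, as were 6.39% of all genes. The 3 included Jdp2, a repressor that pairs with Jun, at 69.0 and 182 CPM, and Batf3, a factor of dendritic cells, at 70.5 and 127 CPM. Macrophage markers themselves stood higher in library 2 in that class, 11 of 11 above 0 with a median log2 ratio of 0.54, and the part of that difference in these genes was not tested.

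Genes with textbook AP-1 sites in their promoters held several that stood lower in library 2. In epithelial tumor cells 4 of 13 were past 1.5-fold, all lower, beside 0.944% of all genes lower, among them Ivl (156 and 81.9 CPM), a component of the epidermal envelope, Mmp13 (166 and 98.9 CPM), a collagenase, and Sprr1a (295 and 186 CPM). The median was -0.27. In the unnamed cells 3 of 16 were lower, Ivl (547 and 267 CPM), Mmp3 (102 and 56.0 CPM) and the secreted phosphoprotein gene Spp1 (14074 and 7983 CPM), and 1 higher, beside 1.07% and 2.84% of all genes, with a median of -0.08. In fibroblasts 8 of 15 were lower and none higher, beside 4.21% of all genes lower, with a median of -0.63. They included Mmp3, a stromelysin, at 94.0 and 30.7 CPM, the cytokine gene Lif at 118 and 53.0 CPM, Spp1 at 6304 and 2851 CPM and Ivl at 167 and 75.9 CPM. In macrophages 8 of 15 were lower and 3 higher, beside 6.32% and 6.39% of all genes, among the latter Mmp9, at 75.1 and 484 CPM. Spp1 and Ivl of fibroblasts differed in the same direction as in epithelial and unnamed cells together, where they stood at 12095 and 7303 CPM and 427 and 219 CPM, and the part of carried-over RNA was not tested. Lif was nearly level there, at 105 and 106 CPM.

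Heat shock chaperones, known to be induced when cells are handled or stressed, had a median log2 ratio of 0.02 in epithelial tumor cells, 0.13 in unnamed cells, 0.21 in fibroblasts and 0.13 in macrophages. Of 8, 7, 7 and 8 genes at 20 CPM, 1, 0, 0 and 1 were past 1.5-fold. The 1 in epithelial tumor cells was lower in library 2, beside 0.944% of all genes, and the 1 in macrophages was higher, beside 6.39%. In unnamed cells 1.07% of all genes were lower and 2.84% higher, and in fibroblasts 4.21% and 3.75%. In pericytes the median was 0.34 with 3 of 8 past the line, all higher in library 2, beside 16.4% of all genes. In neutrophils it was -0.08 with 3 of 7, all lower, beside 11.1% of all genes. T cells had -0.01 and endothelial cells 0.17. The median share of mitochondrial UMIs per cell was higher in library 2 in all 8 classes described. It was 0.351% and 0.455% in epithelial tumor cells of libraries 1 and 2, 0.349% and 0.496% in unnamed cells, 0.769% and 1.28% in fibroblasts, 0.575% and 1.16% in macrophages and 0.566% and 1.07% in endothelial cells. T cells had 0.737% and 1.21%, neutrophils 0.569% and 0.924% and pericytes 0.576% and 0.887%. The part of RNA quality in the differences between the libraries, Egr1 included, was not tested.

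The genes most like Fos across 22 clusters in both libraries (44 points, 11480 genes compared) were epithelial. Elf3, an epithelial ETS factor, had Pearson's r of 0.88 on log2 CPM, followed by Camsap3 (0.86), Llgl2 (0.86), Dsg2 (0.85) and Epb41l4b (0.85). Dsg2 encodes a desmosomal cadherin and Llgl2 a polarity protein. Jun had Btg2, itself an immediate early gene, as the nearest, at 0.72, then Eif2ak3 (0.69), a kinase of the unfolded protein response, Naa80 (0.67), Map7 (0.67) and Rnf186 (0.66). For Atf3 they were Sowahc (0.72), the glucocorticoid receptor gene Nr3c1 (0.71), Sirt1 (0.70), Rnf13 (0.70) and Rragc (0.70). Fosl1 had Pde4dip (0.85), Otud4 (0.85), Lsm14b (0.84), Tmem120a (0.84) and Uba6 (0.84). The points share libraries and carried-over RNA, and no p is given.

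Single cells showed which of the 10 genes were found together. Every cell was thinned to 2000 UMIs, which left 8977 and 8112 epithelial and unnamed cells, with 396 and 498 shallower ones left out. At that depth a UMI of Fos was seen in 18.4% and 14.6% of cells, against 49.5% and 42.1% unthinned, of Egr1 in 38.7% and 29.9%, and of Junb in 77.7% and 74.9%. Atf3 and Fosb were seen in 3.26% and 2.31% and in 2.66% and 2.92%. Endothelial cells, thinned alike, had a Fos UMI in 12.3% and 6.38% and macrophages in 12.0% and 8.70%. The number of cells with 2 genes was set against the product of their shares within each cluster and library.

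Fos and Egr1 were together more often than their shares give, although clusters high in the one were low in the other. In library 1 they were in 712 cells against 579 expected, a ratio of 1.23 (1.14 to 1.32), and in library 2 in 385 cells against 302 expected, a ratio of 1.27 (1.15 to 1.41). With shares taken over all clusters at once the ratios were 1.11 and 1.09. Fosb, Atf3, Fos and Jun formed the pairs with the highest ratios. Fos and Fosb were in 80 cells against 40.1 expected, a ratio of 1.99 (1.58 to 2.48), in library 1 and in 58 cells against 33.8 expected, a ratio of 1.72 (1.30 to 2.22), in library 2. Atf3 was with Jun at ratios of 1.46 and 1.80 and with Fos at 1.49 and 1.74. Fosb and Atf3, both rare, were in 23 cells against 8.85 expected, a ratio of 2.60 (1.65 to 3.900), and in 20 cells against 7.45 expected, a ratio of 2.69 (1.64 to 4.15). Fos and Jun had 1.17 and 1.23, Egr1 and Ier2 1.13 and 1.17, Fos and Ier2 1.14 and 1.16, and Fosb and Egr1 1.31 and 1.52. For all of these pairs the interval of each library lay above 1.

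The interval of each of the 9 pairs of Fosl1 held 1 in both libraries. Fosl1 with Fos had ratios of 1.10 and 0.933, with Egr1 0.971 and 1.06, with Jun 1.04 and 0.978 and with Junb 1.02 and 1.01. With the rare genes Fosb and Atf3 it had 0.795 and 1.17 and 1.24 and 1.15, with wide intervals. Fosl2 had 1.06 and 1.03 with Fos, 0.994 and 1.07 with Egr1, 1.18 and 1.19 with Atf3 and 1.25 and 1.37 with Fosb. Junb and Jund, seen in most cells, had 1.01 and 1.002. Of the 44 pairs with at least 10 expected cells, 39 were above 1 in each library, with medians of 1.07 and 1.06. The interval was above 1 in 14 and 17 pairs and below 1 in none. The share of all gene pairs above 1 was not counted. For Fos with all genes seen in at least 5% of thinned cells, the 5th to 95th percentiles were 0.890 to 1.11 and 0.862 to 1.13. Some of the 44 pairs were ordinary by that measure. For Fosl1, 62.5% and 53.7% of genes had a lower ratio than Junb, and for Junb 69.1% and 58.3% had a lower one than Jund.

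**Figure D4:**
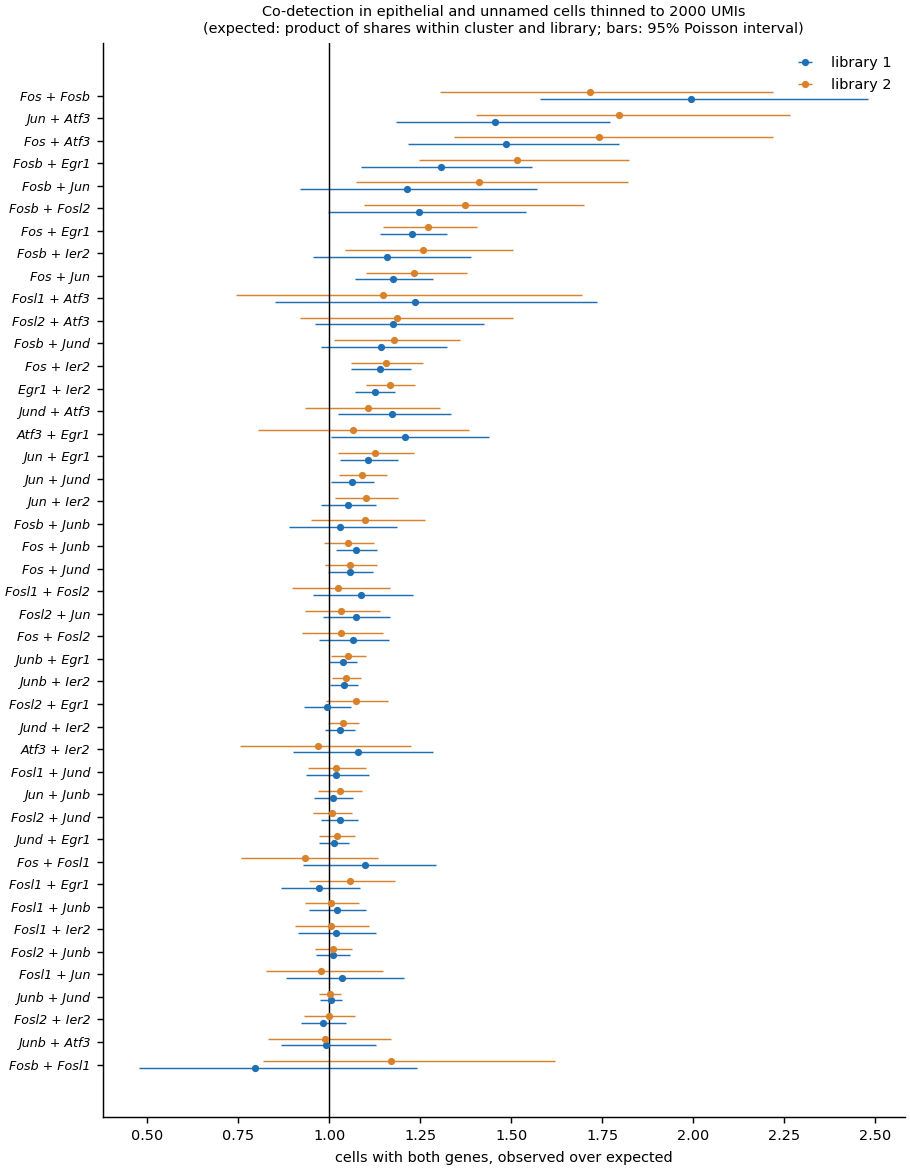
Observed over expected number of epithelial and unnamed cells with both genes of a pair (horizontal), after thinning to 2000 UMIs, for pairs with at least 10 expected cells in each library, blue for library 1 and orange for library 2. Bars are 95% Poisson intervals; Fos with Fosb, and Atf3 with Jun and with Fos, stand highest.

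For Egr1 and Ier2, Fos was among the most co-detected of the genes ranked. For Egr1, 7673 genes with a UMI in at least 5% of thinned cells gave a median ratio of 0.998 in library 1 and 0.995 in library 2, and Fos ranked 3 and 4 among them, near Egr3 and Zfp36, which were in the first 5 in both. For Ier2, Fos ranked 4 and 6 and Egr1 12 and 3. Fosb and Atf3 were under that share and so are not among the ranked genes. Btg2, a growth-arrest gene, came first of those ranked for Fos in both libraries, at 1.38 and 1.48. Ppp1r15a, whose product ends the integrated stress response, came first of them for Atf3 in both, at 1.93 and 2.62. These neighbors were picked as the top ranks after the values were seen. For Jun, Fos ranked 50 and 8, and for Fosl1 none of the 7 others that were ranked was among the first 5 in either library. For Fos itself, Egr1 ranked 27 and 35, Jun 88 and 68 and Ier2 191 and 263, and the others ranked lower still.

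The number of the 10 genes seen per cell was more spread than independent detection gives. No other set of genes was counted in this way, so the spread is not shown to be particular to these 10. In library 1, 6 or more were seen in 4.00% of cells against 2.43% expected, and in library 2 in 3.28% against 1.73%. None was seen in 2.07% and 2.59% of cells, against 1.201% and 1.64% expected. The mean was 3.03 genes per cell in library 1 and 2.86 in library 2.

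**Figure D5:**
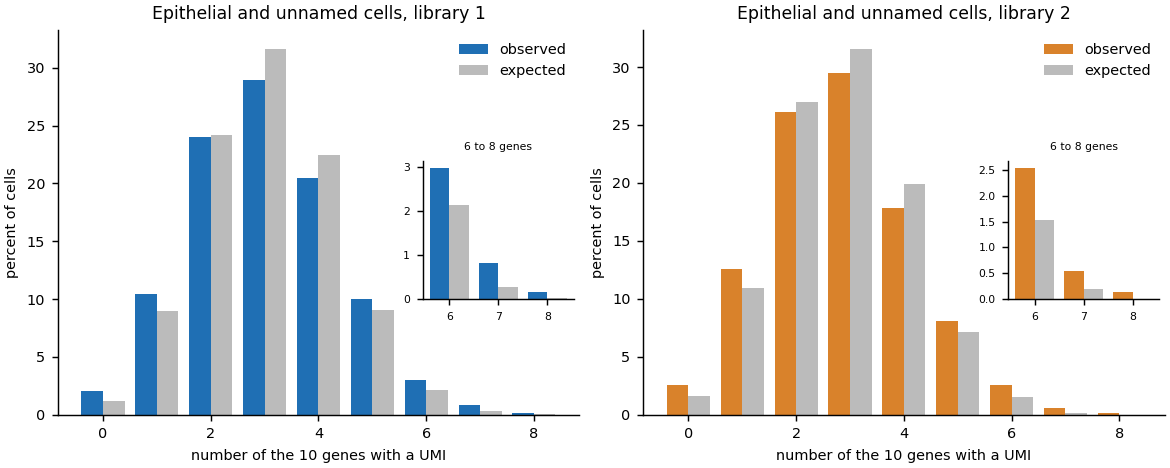
Percent of epithelial and unnamed cells (vertical) by the number of the 10 genes with a UMI after thinning to 2000 UMIs (horizontal), observed in color and expected from independent detection within cluster and library in grey; insets show 6 to 8 genes. Cells with 0 and with 6 or more are more frequent than expected in both libraries.

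In fibroblasts and macrophages the counts were too low to set most pairs apart from 1. Fos and Egr1 were in 21 cells against 15.5 expected, a ratio of 1.35 (0.839 to 2.07) in fibroblasts of library 1, and in 26 cells against 18.6 expected, a ratio of 1.40 (0.914 to 2.05) in library 2. In macrophages the ratios were 1.195 and 1.42, with intervals that held 1. The second, in library 2, had under 10 expected cells, with Fos in 43 and Egr1 in 81 of 494 cells. In epithelial tumor cells and in unnamed cells taken separately, Fos with Egr1 gave 1.22 and 1.27 and 1.23 and 1.28.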

How the data were processed

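The authors deposited 1 matrix of whole-number UMI counts, 19059 genes in 24282 cells of 2 libraries, made with Cell Ranger 8.0.0 on mm10 per the submitters' processing notes. Per the labels, cells were fixed and read with probes, so a level depends on the probes of a gene. Cells with at least 200 genes, 500 UMIs and under 20% mitochondrial UMIs were kept. The cells with the highest Scrublet doublet scores were removed, 0.8% for each 1000 cells of a library. Cells were clustered (scanpy 1.11.5, Leiden, resolution 1) without 108 measured genes of the lists described, and named from marker lists. A level is the UMIs of a gene in a class, per library, over all UMIs of that class (CPM). With 1 pooled library each, no test was run, and 95% Poisson intervals cover counting error only. Depth was 203459556 and 185474400 UMIs. Alternatives included TMM factors (edgeR 4.0.16 in R 4.3.3). The scripts were tested on simulated data. Named list genes reach 50 CPM and are among the 4 highest or 4 lowest ratios of their list, apart from those said to be chosen after their values were seen. The 10 genes and the lists were chosen with earlier results of these data known. Some list genes are counted and not reported by name here.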

Additional observations from a re-analysis of the deposited data

How the results depend on the processing

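The median log2 ratio of library 2 over library 1 over the 10 genes, taken over those at 20 CPM, was recomputed under the alternatives in epithelial tumor cells, in epithelial and unnamed cells together, in fibroblasts and in macrophages, and kept its sign in these 4 under every alternative run. The other classes had none. In epithelial tumor cells it was -0.20. It moved to -0.15 without the filter on low values, -0.10 with the mean of per-cell shares, -0.25 with cells thinned to 2000 UMIs, -0.12 at clustering resolution 2, -0.23 with the gene lists kept for clustering, -0.13 with at least 1000 UMIs per cell and -0.17 with library 2 weighted to the cluster shares of library 1. In epithelial and unnamed cells together it was -0.11, and -0.15 both in thinned cells and without the clusters mostly of 1 library. In fibroblasts it was 0.22, then 0.36 with per-cell shares, 0.52 in thinned cells and 0.003 without doublet removal. In macrophages it ranged from -0.30 to -0.04. The co-detection ratio of Fos and Egr1, averaged over the libraries, was 1.25. It was 1.44 at 1000 UMIs per cell, 1.14 at 5000, and 1.10 with shares pooled over clusters. The cause of these shifts was not tested. The weighting, the removal of 1-library clusters, of the 3 highest cells per gene and of single fibroblast or macrophage clusters were added after the data were seen. No paired analysis was possible because each library is 1 pool with no replicate number. Classes with under 150 cells in a library give wide intervals, above all for Fosb and Atf3.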
